A study of Mus musculus with 12 samples.

Results

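The nuclear factor I (NFI) genes Nfia, Nfib, Nfic and Nfix encode a family of 4 transcription factors, and all 4 were found by name among the 23226 features that carry 1 gene name, of 28112 features in all. Another 2 features with joined names, Nfib;Nfib and Lyl1;Nfix, hold further exons of the family. The values come from RNA sequencing of 3 mouse small cell lung cancer lines, each labelled as a tumor-derived line without Trp53 and Rb1 that was grown as floating spheres. In 16T and KP1, both labelled Nfib high, cells expressing an shRNA against Nfib (16T-sh2 and KP1-sh2) were set against cells expressing a control shRNA (16T-shLuc and KP1-shLuc). In KP22, labelled Nfib low, cells with a vector expressing Nfib cDNA (KP22-nfib) were set against cells with the empty vector (KP22-empty). Each of the 6 groups held 2 samples, called duplicates, and nothing in the labels says that they were grown apart. A p therefore reflects at most the spread between such duplicates, which may be technical. The authors' fit may pool that spread over groups, so a p for a single line need not measure the spread within that line. Both knockdown lines received an shRNA of the same name, so effects of that one hairpin on other transcripts and effects of lower Nfib cannot be told apart.

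NFI proteins bind DNA as homodimers or heterodimers through a conserved amino-terminal domain and can activate or repress transcription through their more variable carboxy-terminal parts. They are known for roles in the maturation of the lung, in the formation of glia and in stem cells of muscle and skin. Nfib is recurrently amplified in mouse small cell lung cancer and has been linked to its metastasis. Because the members recognise the same palindromic site, their relative levels and the way one member moves with another bear on which dimers a cell can form.

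Only results of the authors' own fit were used here, with no value per sample, so the level in each library, the depth behind it and how many samples share a direction are unknown. For each feature the table gives 1 mean normalized count over all libraries of the fit, and for each comparison a log2 fold change with its standard error (SE, written after ±) and an adjusted p. The words rose and fell are kept for an adjusted p below 0.05 in the authors' Wald test. The headings do not state a direction, which was read from Nfib, so the signs of Nfib itself are no separate check of the labels. Neuroendocrine markers had mean normalized counts of at least 2285 in the authors' deposited table, with a median of 13939 (10 of 10 measured). Of these markers 4 rose and 4 fell in 16T, 5 rose and 4 fell in KP1, and 3 rose and 6 fell in KP22; 80%, 90% and 90% were thus called, against 45.3%, 37.2% and 38.4% of all tested features. In KP22 Chgb had a log2 fold change of -4.27 in the authors' deposited table; their part in the results below was not tested. The leukocyte gene Cd3e, the fibroblast gene Col3a1 and the airway secretory gene Scgb1a1 were listed at 0, and the 5 leukocyte, 5 fibroblast, 5 endothelial and 5 lung epithelial markers had median means of 1.38, 21.6, 183 and 120 in the authors' deposited table. Single markers stood much higher, Vwf at a mean of 2353 and Pdgfra at 2220 in the authors' deposited table, close to the lowest neuroendocrine marker. Of the tested endothelial markers 1 of 4 fell in 16T, 1 rose and 1 fell of 4 in KP1, and 2 of 5 fell in KP22, or 25%, 50% and 40% called. Kdr, an endothelial receptor gene, fell in every line in the authors' deposited table (-1.48 in 16T, -1.62 in KP1, -1.76 in KP22), and Vwf had 1.34 in KP1 and -0.75 in KP22. Of 3 tested fibroblast markers 2 rose in 16T (66.7%) and 1 fell in KP1 (33.3%; Pdgfra, -0.47 in the authors' deposited table), and 0 of 4 were called in KP22. Of 3 tested lung epithelial markers 1 fell in 16T (33.3%), and 0 of 3 were called in KP1 and 0 of 4 in KP22. No tested leukocyte marker was called, of 1 in 16T, 1 in KP1 and 3 in KP22. Shares of so few markers say little beside the 45.3%, 37.2% and 38.4% of all tested features. The part of these markers in the results was not tested. In bulk RNA, fewer cells expressing a gene and less RNA per cell cannot be told apart.

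In the mean over all libraries together, Nfib had the highest level of the members and Nfia the lowest. Over all libraries together the mean normalized count in the authors' deposited table was 30668 for Nfib, 8333 for Nfic, 5498 for Nfix and 585 for Nfia. Divided by the exon length counted for each gene, the mean level was 3379 per kb for Nfib, 1947 per kb for Nfix, 1324 per kb for Nfic and 60.7 per kb for Nfia. On this scale per length, Nfib made up 50.4% of the family's summed level, Nfix 29%, Nfic 19.7% and Nfia 0.904%. Nfib was 55.7 times as abundant per kb as Nfia, 2.55 times as abundant as Nfic and 1.74 times as abundant as Nfix. Of 15008 features with a mean of at least 10, 8.64% had a higher mean per kb than Nfib, 16.8% than Nfix, 25.1% than Nfic and 80.8% than Nfia. These are means over libraries that include the knockdown and cDNA samples, no spread between libraries can be given for them, and the order of the members within a single line, such as Nfib against Nfix in KP22, is unknown.

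**Figure D1:**
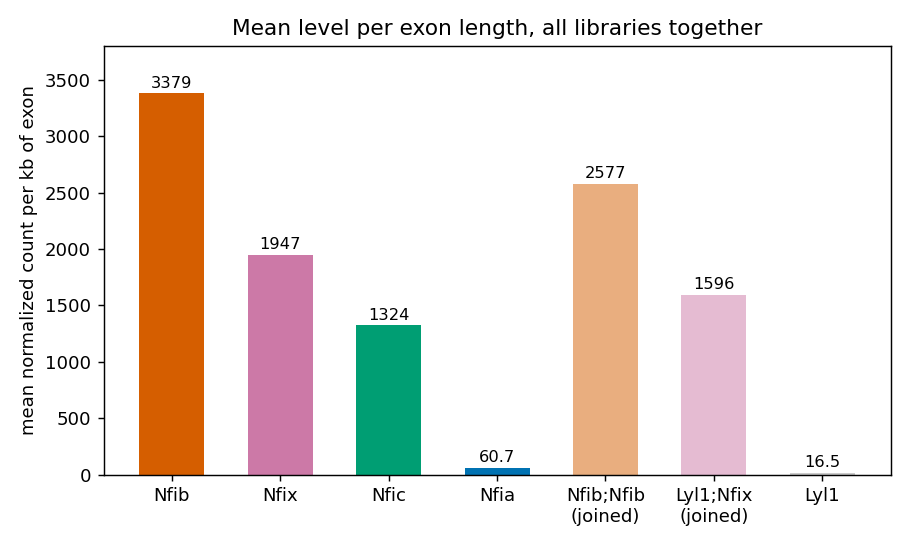
Mean normalized count per kb of exon (vertical axis) over all libraries together, for the 4 NFI genes (solid bars), the 2 joined features and Lyl1 (paler bars). Nfib stands at 3379 per kb and Nfia at 60.7 per kb, and the Lyl1;Nfix interval at 1596 per kb lies close to Nfix and far from Lyl1 at 16.5 per kb; no error is available.

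The 4 genes differ in what their counted exons hold. Per the deposited exon list on mm10, Nfib was counted on 11 intervals of chromosome 4 (82290173 to 82505779) with a summed length of 9075 bases, and Nfia on 12 intervals of the same chromosome (97581943 to 98118876) with 9643 bases. Nfic was counted on 10 intervals of chromosome 10 (81396191 to 81427173) with 6295 bases, and Nfix on 11 intervals of chromosome 8 (84713766 to 84800338) with 2824 bases. In the GENCODE M21 annotation of the same build, 17% of the Nfib bases, 16.4% of the Nfia bases and 21.2% of the Nfic bases are coding, so most of the length they were counted on is untranslated. A single last-exon interval makes up 73.2% of the counted length of Nfib, 79.4% of that of Nfia and 77.5% of that of Nfic. For Nfix, 53.0% of the counted bases are coding, because its long last exon overlaps Lyl1 and stands under the joined name. Exons annotated on the opposite strand overlap 4.85% of the Nfix bases (G430095P16Rik), 1.14% of the Nfic bases (Gm16104), 0.0415% of the Nfia bases (E130114P18Rik) and none of the Nfib bases.

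Lowering Nfib was accompanied by changes of other members that differed between the lines. In 16T with the Nfib shRNA, Nfia rose and Nfix fell, whereas in KP1 with the shRNA of the same name Nfic was the one other member that changed, and rose slightly. In KP22 with Nfib cDNA all 3 other members changed, Nfix and Nfic rising and Nfia falling. Including Nfib, 3 of 4 members changed in 16T, where 45.3% of all tested features did; 1 rose and 2 fell, against 20% and 25.3% of features. In KP1, 2 of 4 members changed, against 37.2% of all tested features, 1 rising (17.6% of features) and 1 falling (19.6%). In KP22, 4 of 4 changed, against 38.4%, 3 rising (19.5% of features) and 1 falling (18.8%). In the authors' further test, which asks for a log2 change of more than 0.5 in size, Nfib alone passed in 16T and in KP1, where 5.56% and 4.87% of features did, and Nfib and Nfix passed in KP22, where 7.2% did. Since between 37.2% and 45.3% of features were called in these comparisons, the number of members called says little beyond their sizes.

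**Figure D2:**
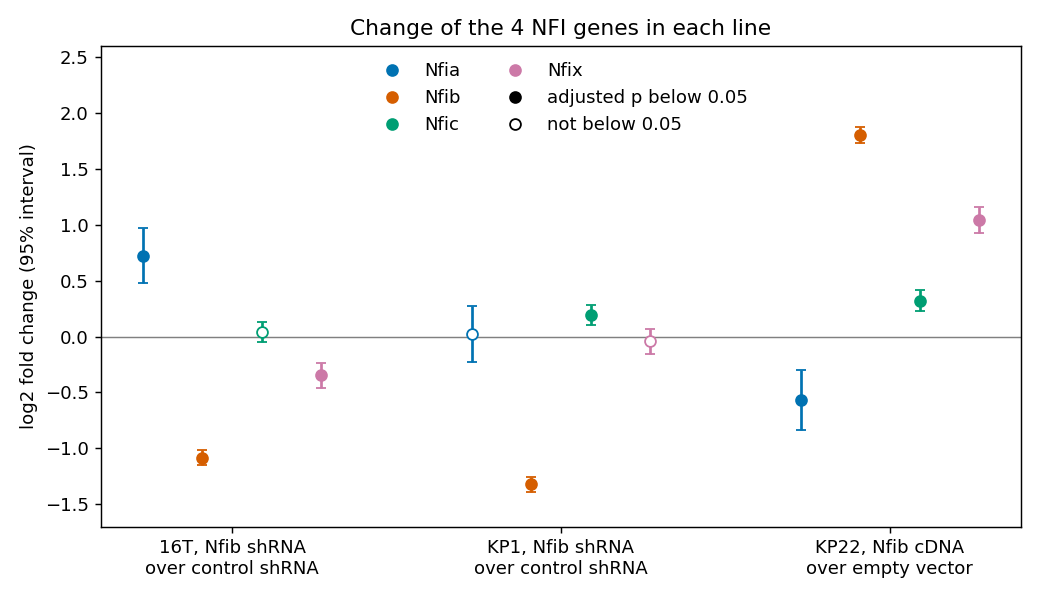
Log2 fold change (vertical axis, with 95% intervals) of each NFI gene in 16T, KP1 and KP22; filled points had an adjusted p below 0.05 in the authors' test. Nfix lies at 1.04 in KP22, -0.35 in 16T and -0.04 in KP1, while Nfia runs the other way, at -0.56 in KP22 and 0.72 in 16T.

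Nfib, the targeted gene, was reduced in both knockdown lines and raised in KP22. In 16T the shRNA samples had 47.2% of the control level, with a 95% interval of 45.0% to 49.5%, in the authors' deposited table (log2 fold change -1.08 ± 0.035). In KP1 they had 40.0%, with an interval of 38.1% to 42.0%, in the authors' deposited table (-1.32 ± 0.035). Nfib ranked 26th in 16T and 4th in KP1 among 14504 tested features by the size of its Wald statistic, the ratio of effect to SE. The knockdown was deeper in KP1: the difference of the log2 fold changes, 16T minus KP1, was 0.24 ± 0.05 (adjusted p = 1.9e-05, normal reference with Benjamini-Hochberg adjustment over 15008 features, of which 29.4% differed). In KP22 the cDNA samples had 3.49 times the level of the empty vector samples in the authors' deposited table, with a log2 fold change of 1.80 ± 0.036. Which part of the Nfib transcript the vector carries is not given in the sources used here, and reads of the vector and of the gene itself cannot be told apart.

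A coding stretch of Nfib had a smaller estimated change than the rest of the gene in KP22. The joined feature Nfib;Nfib is a single interval of 166 bases on chromosome 4 (82323545 to 82323710), lies wholly in coding sequence in GENCODE M21 and belongs to 4 of its 7 coding Nfib transcripts. Its mean normalized count of 428 in the authors' deposited table corresponds to 2577 per kb, against 3379 per kb for the other exons. With the shRNA it had a log2 fold change of -0.81 ± 0.43 in 16T (adjusted p = 0.118) and fell by 1.09 ± 0.43 in KP1 (adjusted p = 0.0358) in the authors' deposited table. These differ from the values of the other exons by 0.27 ± 0.43 and 0.23 ± 0.43, which is within their error. In KP22 the interval had 0.52 ± 0.43 in the authors' deposited table (adjusted p = 0.391), which is 1.29 ± 0.43 below the value of the other Nfib exons, with a 95% interval of the difference from -2.13 to -0.44. No adjusted p was computed for this single difference. If the deposited changes were shrunken towards 0, this 166-base stretch, with its larger SE (0.43, against 0.036 for the other exons), would be drawn further. The difference may then be overstated, which was not tested. The SE of the interval is large for its level: of 812 features whose mean and its own differ by at most 25% of the smaller, 2.71% had a larger SE in 16T and 3.82% in KP22, and their median SE was 0.163 in 16T and 0.168 in KP22.

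**Figure D3:**
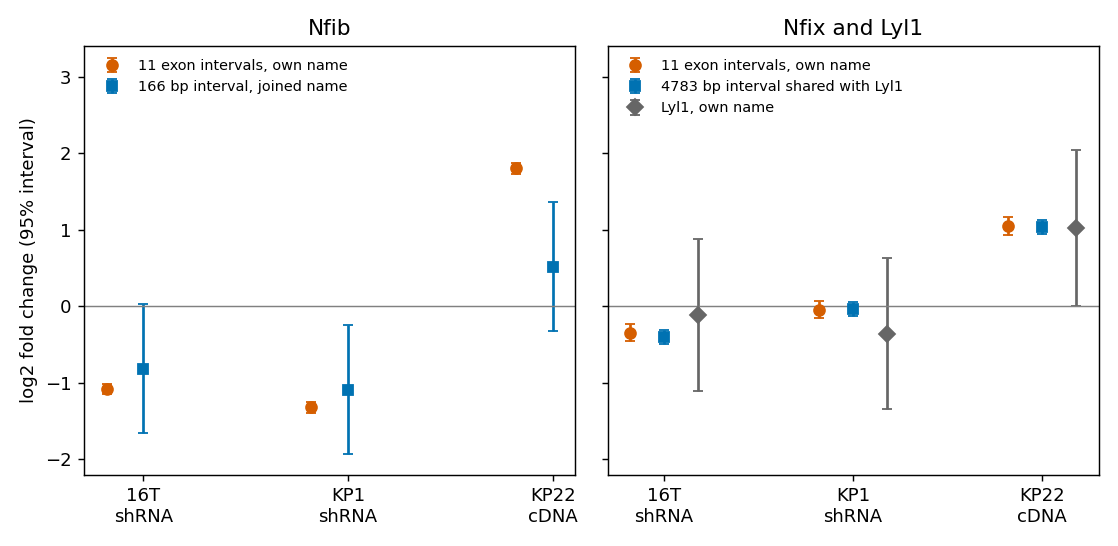
Log2 fold change (vertical axis, with 95% intervals) in 16T and KP1 with the Nfib shRNA and in KP22 with Nfib cDNA, for exon intervals under a gene's own name and under joined names. In the left panel the 166 bp Nfib interval (squares) lies at 0.52 in KP22, below the other Nfib exons at 1.80; in the right panel the Lyl1;Nfix interval (squares) lies level with Nfix (circles) in all 3 lines.

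Nfix, which in mouse muscle takes part in the switch from embryonic to fetal gene expression, had the largest change of any member other than Nfib. With Nfib cDNA it rose in KP22 to 206% of the empty vector level in the authors' deposited table, a log2 fold change of 1.04 ± 0.06 (adjusted p = 3.35e-65), larger than in all but 8.0% of 17544 tested features. Against a change of 0.5 its adjusted p was 1.17e-17 in the authors' deposited table. In 16T with the shRNA Nfix fell to 78.6% of the control level in the authors' deposited table (-0.35 ± 0.056, adjusted p = 5.85e-09). In KP1 it had 97.0% of the control level, with a 95% interval of 89.9% to 105%, in the authors' deposited table (-0.04 ± 0.056, adjusted p = 0.613). Between the knockdown lines the effects differed by -0.30 ± 0.079 (16T minus KP1, adjusted p = 0.000872). Judged on a t distribution with 6 degrees of freedom, that difference had an adjusted p of 0.0598.

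The long last exon of Nfix gave the same picture. The Lyl1;Nfix interval spans 4783 bases of chromosome 8 (84703895 to 84708677), of which 82.9% are annotated as Nfix exon and 17.2% as exons of Lyl1, a hematopoietic transcription factor gene on the opposite strand. The interval rose by 1.03 ± 0.048 in KP22 (adjusted p = 5.91e-101), fell by 0.40 ± 0.045 in 16T and had -0.04 ± 0.044 in KP1 in the authors' deposited table, with an adjusted p of 0.606 in KP1. It differed from the other Nfix exons by -0.01 ± 0.077 in KP22, -0.06 ± 0.072 in 16T and 0.01 ± 0.071 in KP1. Lyl1 on its own exons had a mean of 16.2 in the authors' deposited table, and the shared interval was 96.6 times as abundant per kb as those exons.

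Promoters of the family were read for the NFI site because Nfib and Nfix rose together in KP22. RefSeq promoters on GRCm38.p6 (250 bases before to 50 after a transcription start) were matched for 3 of the 4 genes: 4 for Nfix, 1 each for Nfia and Nfic, and none for Nfib. The full palindrome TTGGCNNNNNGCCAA was found in 0 of these 6 promoters and in 0.0365% of 32851 RefSeq promoters. A single arm of it (TTGGC or GCCAA, which covers both strands and is also part of the palindrome) was found in 3 of the 6, all of them Nfix starts, against 46.7% of all promoters, so its presence does not set Nfix apart. The 3 stretches are shown since they hold the only matches among these 6 promoters, none of which belongs to Nfib. Each is 30 bases on the minus strand of chromosome 8, printed 5′ to 3′ with the arms in capitals.
Nfix start at 84772875, chr8:84772860-84772889: ctgggggcaGCCAAacaTTGGCcagtccgg
Nfix start at 84773410, chr8:84773366-84773395: tcagaatcaggcgTTGGCtttgccgggtgc
Nfix start at 84775828, chr8:84775987-84776016: tggatcttttgttTTGGCtcaccccaggcg
The first stretch holds 2 arms, facing opposite ways, between bases -5 and 8 of its start, in the order opposite to that of the palindrome. The match of the second lies 29 to 33 bases after its start, and that of the third at positions -175 to -171. A match of letters is a description and not a site shown to be bound.

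Nfia, which drives astrocyte formation in mouse spinal cord and brain, moved against Nfib in 16T and KP22. With the shRNA it rose in 16T to 165% of the control level, with a 95% interval of 139% to 196%, in the authors' deposited table (0.72 ± 0.13, adjusted p = 7.65e-08). With Nfib cDNA it fell in KP22 to 67.6% of the empty vector level, with an interval of 56.2% to 81.4%, in the authors' deposited table (-0.56 ± 0.14, adjusted p = 0.000195). In KP1 it had 101% of the control level, with an interval of 85.3% to 121%, in the authors' deposited table (0.02 ± 0.13, adjusted p = 0.939). Between 16T and KP1 the effects differed by 0.70 ± 0.18 (adjusted p = 0.000621), or with an adjusted p of 0.056 on the t distribution with 6 degrees of freedom. Nfia was the member with the lowest level, and its SE was nevertheless lower than that of most features at a like mean: 86.4% of 958 such features had a larger SE in 16T and 66.4% in KP22.

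Nfic, whose loss in mice disturbs the formation of tooth roots, changed by no more than 0.32 on the log2 scale in any line. With Nfib cDNA it rose in KP22 by 0.32 ± 0.049 on the log2 scale, to 125% of the empty vector level, in the authors' deposited table (adjusted p = 7.35e-10). With the shRNA it rose in KP1 by 0.19 ± 0.048, to 114% of the control level, in the authors' deposited table (adjusted p = 0.000323). In 16T the authors' deposited table gave 0.04 ± 0.048 (adjusted p = 0.535). The effects in 16T and KP1 differed by -0.15 ± 0.067 (adjusted p = 0.0737), with a 95% interval from -0.28 to -0.02. Nfic thus rose both where Nfib was lowered, in KP1, and where Nfib was raised, in KP22, and both changes were under 0.5 on the log2 scale.

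Set side by side, the members kept no common order. In KP22 the log2 fold changes ran from Nfia through Nfic and Nfix up to Nfib, each step between 0.72 and 0.89, and the 95% intervals of neighbouring genes did not overlap. In 16T the order ran from Nfib through Nfix and Nfic up to Nfia, again with no overlap between neighbours. In KP1, Nfib stood 1.28 below Nfix, while the intervals of Nfix, Nfia and Nfic overlapped from one to the next. The authors' heading for the mean of both knockdown lines shares its samples with 16T and KP1 and equals the mean of their effects. Under it the authors' deposited table gave 0.37 ± 0.09 for Nfia, 0.12 ± 0.034 for Nfic, -0.20 ± 0.04 for Nfix and -1.20 ± 0.025 for Nfib, all 4 called, where 45.3% of features were; 2 rose and 2 fell, against 20.2% and 25.1% of features, and Nfib alone passed against 0.5, as 5.06% did. For Nfia and Nfix this mean stands between lines whose effects differed by the test given above.

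Whether Nfib cDNA gave the mirror image of the shRNA was tested by adding the KP22 effect to that mean, so that 0 stands for equal and opposite effects. Nfia had a sum of -0.19 ± 0.16 with a 95% interval from -0.51 to 0.13 (adjusted p = 0.395). No departure from a mirror image of the mean was thus detected, and the interval leaves room for one of up to 0.51. For Nfia that mean stands between unlike effects, 0.72 in 16T and 0.02 in KP1. Its sum therefore describes neither line by itself, and KP22 was not set against each line alone. Nfix departed by 0.85 ± 0.072 (adjusted p = 3.28e-30), since its rise in KP22 was larger than its fall in that mean (-0.20). For Nfix too the mean stands between unlike effects, -0.35 in 16T and -0.04 in KP1, where it had no call. The sum of Nfix likewise describes neither line by itself. Nfic departed by 0.44 ± 0.06 (adjusted p = 3.33e-12), because its 2 effects had the same sign. Nfib itself departed by 0.60 ± 0.044 (adjusted p = 2.83e-40), the change by cDNA being larger than that by shRNA. Of 15008 features tested, 36.7% departed. The test compares different lines as well as different vectors, and these cannot be told apart.

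Genes with a pattern closest to that of each member were found by the distance between log2 fold changes over the 3 comparisons, among 12286 other features with a mean of at least 100. Next to Nfib were Prss12 (distance 0.16), which encodes the protease neurotrypsin, Gm14207 (0.17) and the phosphatase gene Ppm1n (0.28). Only 14 features lay within 0.5 of Nfib, compared with 4603 for Nfic, 459 for Nfia and 268 for Nfix. Next to Nfix were Hes6 (0.028), a helix-loop-helix gene of neuroendocrine and neural progenitors that counteracts Hes1, Chac1 (0.06), an enzyme that degrades glutathione, and the potassium channel gene Kcnq5 (0.15). For Hes6 the authors' deposited table gave -0.36 ± 0.044 in 16T, -0.04 ± 0.044 in KP1 and 1.02 ± 0.044 in KP22. Next to Nfia were Tle6 (0.11), a relative of the Groucho corepressors, C1galt1 (0.11), a glycosyltransferase of O-glycans, and Ube2l6 (0.11), which conjugates ISG15. Next to Nfic were Sod1 (0.022), Ttc9c (0.029) and the kinetochore gene Casc5 (0.03). The distances rest on 3 comparisons and carry no test.

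Factors that act with NFI proteins or upstream of them changed in larger part than all features in KP1 and KP22. Of 13 listed genes 12 were tested, and 3 rose and 2 fell in 16T, 5 rose and 3 fell in KP1, and 5 rose and 3 fell in KP22. That is 41.7%, 66.7% and 66.7% of those tested, against 45.3%, 37.2% and 38.4% of all features, and the list was put together with earlier results of these data known. The medians of the tested list members were 0.02, -0.07 and 0.34, against -0.05, -0.02 and 0.04 over all tested features. Mycl, an oncogene of small cell lung cancer on the same chromosome as Nfib, moved with Nfib in all 3 lines. In the authors' deposited table it fell by 1.27 ± 0.03 in 16T, fell by 1.41 ± 0.03 in KP1 and rose by 1.52 ± 0.03 in KP22, at a mean normalized count of 242149, the highest of all single-name features. It lies 40.5 Mb from Nfib on chromosome 4 (122996099 to 123002480) and ranks 6th by likeness to the pattern of Nfib, at a distance of 0.35. Nkx2-1, the lung lineage factor that works with NFI proteins at surfactant promoters, rose in 16T and KP1 (0.64 ± 0.051 and 0.68 ± 0.051) and fell in KP22 (-0.21 ± 0.051) in the authors' deposited table. In the authors' deposited table Stat5a, which acts with NFI in the mammary gland, fell by 1.08 ± 0.11 in KP1 and by 1.25 ± 0.13 in KP22. Neurod1, a neural helix-loop-helix gene, fell by 1.82 ± 0.19 in KP22 in the authors' deposited table. Foxa1, a pioneer factor that interacts with NFI proteins, rose in all 3 lines in the authors' deposited table, by 0.29 in 16T, 0.45 in KP1 and 0.37 in KP22; it was singled out after its values were seen.

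**Figure D4:**
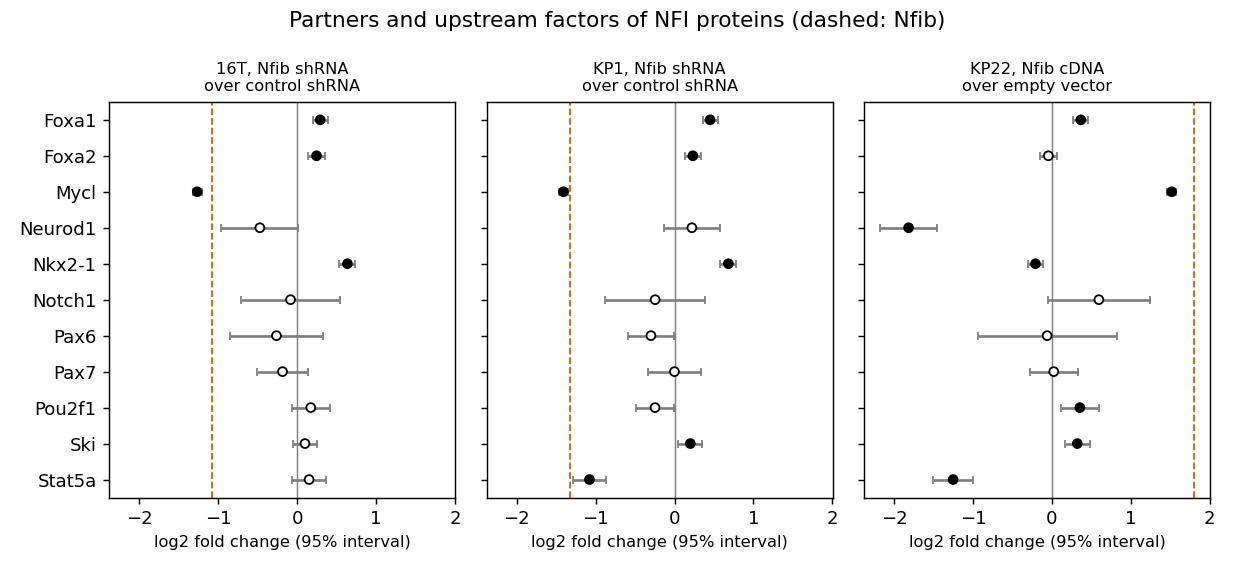
Log2 fold change (horizontal axis, with 95% intervals) of 11 of the 13 partners and upstream factors of NFI proteins in 16T, KP1 and KP22; filled points had an adjusted p below 0.05 and the dashed line marks Nfib in the same comparison. Mycl lies near the Nfib line in each panel, at -1.27, -1.41 and 1.52.

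With both directions counted together, genes that NFI proteins are known to control in the nervous system changed in about the share that all features did. Of 19 listed, 14 were tested in 16T, where 4 rose and 1 fell, 14 in KP1, where 2 rose and 3 fell, and 18 in KP22, where 2 rose and 6 fell. Called shares of 35.7%, 35.7% and 44.4% lie near the 45.3%, 37.2% and 38.4% of all features. The medians were 0.03, -0.05 and -0.41, against -0.05, -0.02 and 0.04 over all tested features. In KP22 the listed genes thus leaned towards falls, while 19.5% of all features rose and 18.8% fell. In 16T the aldolase gene Aldoc (1.29 ± 0.077), the Notch target Hes1 (1.15 ± 0.29) and the ephrin gene Efnb1 (0.86 ± 0.14) rose in the authors' deposited table. In KP1 the glutamate transporter gene Slc1a3 (-2.68 ± 0.45) and Sox9 (-1.73 ± 0.17), a factor that induces Nfia in mouse spinal cord, fell and Hes1 rose (0.96 ± 0.33) in the authors' deposited table. In KP22 the cell adhesion gene Cntn2 (-1.39 ± 0.37), the astrocyte filament gene Gfap (-1.09 ± 0.33) and the water channel gene Aqp4 (-0.83 ± 0.33) fell in the authors' deposited table. The mean normalized count of Slc1a3 was 27.8, that of Cntn2 86.2, that of Aqp4 89.8 and that of Hes1 103 in the authors' deposited table. Gfap had a mean of 1964 with an SE of 0.33 in KP22, where Aldoc, at a mean of 3142, had an SE of 0.08. The values per library behind the large SE of Gfap are unknown.

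Genes linked to NFI proteins in other tissues mostly had means under 10. Of 15 listed, 14 were in the table, 5 of them at a mean of 0 and 9 at a mean under 10, and 5 were tested in 16T and KP1 and 9 in KP22. In 16T 2 rose and 1 fell, in KP1 1 rose and 0 fell, and in KP22 0 rose and 2 fell, which is 60%, 20% and 22.2% of those tested, against 45.3%, 37.2% and 38.4% of all features, so above that share in 16T and below it in KP1 and KP22. The medians were 0.61, -0.24 and 0.23, against -0.05, -0.02 and 0.04 over all tested features. Cdkn1a, which encodes the cell cycle inhibitor p21, rose in 16T and KP1 (1.31 ± 0.092 and 1.19 ± 0.09) and fell in KP22 (-0.52 ± 0.088) in the authors' deposited table. The slow myosin gene Myh7 rose in 16T (1.73 ± 0.51) and fell in KP22 (-1.76 ± 0.52) in the authors' deposited table, at a mean of 15.9. Sftpc, the gene of a surfactant protein, fell in 16T (-2.07 ± 0.25) in the authors' deposited table.

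Genes beside the NFI loci were read to see whether the members moved with their surroundings. Of 145 features with a mean of at least 10 within 1 Mb of an NFI gene, 138 were tested in 16T and KP1 and all in KP22, and 53.6%, 47.8% and 46.9% changed, against 45.3%, 37.2% and 38.4% of all features. Around Nfib, neighbours were called in both directions in each line: 2 rose and 3 fell of 7 in 16T, 1 rose and 4 fell of 7 in KP1, and 2 rose and 3 fell of 8 in KP22. Those are 71.4%, 71.4% and 62.5% called, of few genes, against the 45.3%, 37.2% and 38.4% of all features. Mpdz, 847 kb away, and Snapc3, 912 kb away, were called in the direction of Nfib in every line. Under the shRNA Mpdz fell (16T -0.48 ± 0.044, KP1 -0.55 ± 0.041), and with Nfib cDNA it rose (KP22 0.53 ± 0.047). Snapc3 followed the same course (16T -0.27 ± 0.059, KP1 -0.28 ± 0.059, KP22 0.23 ± 0.071) in the authors' deposited table. Cer1, which encodes a secreted BMP antagonist and lies 376 kb from Nfib, moved against it, rising in 16T (0.87 ± 0.067) and KP1 (2.06 ± 0.071) and falling in KP22 (-0.91 ± 0.071) in the authors' deposited table. Frem1, an extracellular matrix gene at 398 kb, fell in KP22 by 5.42 ± 0.27 and had -0.28 ± 0.13 in 16T and 0.03 ± 0.13 in KP1 in the authors' deposited table (adjusted p = 0.0758 in 16T and 0.921 in KP1). Zdhhc21, a palmitoyltransferase gene and the nearest measured neighbour above Nfib, fell by 0.17 ± 0.044 in 16T and 0.18 ± 0.044 in KP1 in the authors' deposited table. On the other side the nearest was Gm5860, with a mean of 15.3 and no adjusted p in the knockdown lines in the authors' deposited table.

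Around Nfix, most called neighbours in KP1 were higher, while Nfix itself had no call there. Of 54 tested there, 29 rose and 1 fell, which is 53.7% and 1.85%, against 17.6% and 19.6% of all features, with a median of 0.22. In 16T 11 rose and 17 fell of 54, or 20.4% and 31.5%, against 20% and 25.3% of all features. In KP22 16 rose and 10 fell of 57, or 28.1% and 17.5%, against 19.5% and 18.8%. The nearest feature on the lower side was Lyl1, given above, and on the upper side Dand5 at 15.1 kb, which encodes an antagonist of Nodal signaling and had no adjusted p below 0.05. Trmt1, a tRNA methyltransferase gene 14 kb away on the lower side, was called in all 3 lines in the direction of Nfib. In the authors' deposited table it fell by 0.19 ± 0.056 in 16T and by 0.29 ± 0.056 in KP1, the 1 fall there, and rose by 0.43 ± 0.056 in KP22. The largest changes there were falls of Cd97 (-1.11 ± 0.16), an adhesion receptor gene, and of Prkaca (-1.10 ± 0.049), a catalytic subunit of protein kinase A, in KP22 in the authors' deposited table. Around Nfic, 14 rose and 26 fell of 72 in 16T, or 19.4% and 36.1%, against 20% and 25.3% of all features. In KP1 13 rose and 15 fell of 72, or 18.1% and 20.8%, against 17.6% and 19.6%. In KP22 15 rose and 19 fell of 74, or 20.3% and 25.7%, against 19.5% and 18.8%. Its nearest neighbour on the lower side was 2210404O07Rik, which rose in 16T (1.0 ± 0.37) in the authors' deposited table. Dohh, a deoxyhypusine hydroxylase gene at 7.84 kb on that side, fell in 16T (-0.35 ± 0.066) and KP1 (-0.25 ± 0.067) in the authors' deposited table. On the upper side the nearest was Celf5, at 32.1 kb, an RNA binding protein gene with no adjusted p below 0.05. Lingo3 rose in 16T (1.61 ± 0.40), and the kinase gene Matk rose in 16T (1.59 ± 0.15) and KP1 (0.81 ± 0.14) and fell in KP22 (-1.56 ± 0.17), in the authors' deposited table. Tle6, whose pattern was the closest to that of Nfia, lies 164 kb from Nfic.

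Nfia stands in a sparse stretch, with 6 measured neighbours, none of them on its lower side. Tm2d1, the nearest at 236 kb, rose in KP1 (0.31 ± 0.11) in the authors' deposited table, where Nfia had no call. Kank4 (1.87 ± 0.52, at a mean of 11.3) and the deubiquitinase gene Usp1 (0.38 ± 0.048) rose in KP22 in the authors' deposited table, where Nfia fell. In 16T, where Nfia rose, 1 of 5 tested neighbours rose and 0 fell, or 20% and 0%, against 20% and 25.3% of all features. In KP1 2 rose and 1 fell of 5, or 40% and 20%, against 17.6% and 19.6%. In KP22 3 rose and 0 fell of 6, or 50% and 0%, against 19.5% and 18.8%. These are shares of few genes.

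**Figure D5:**
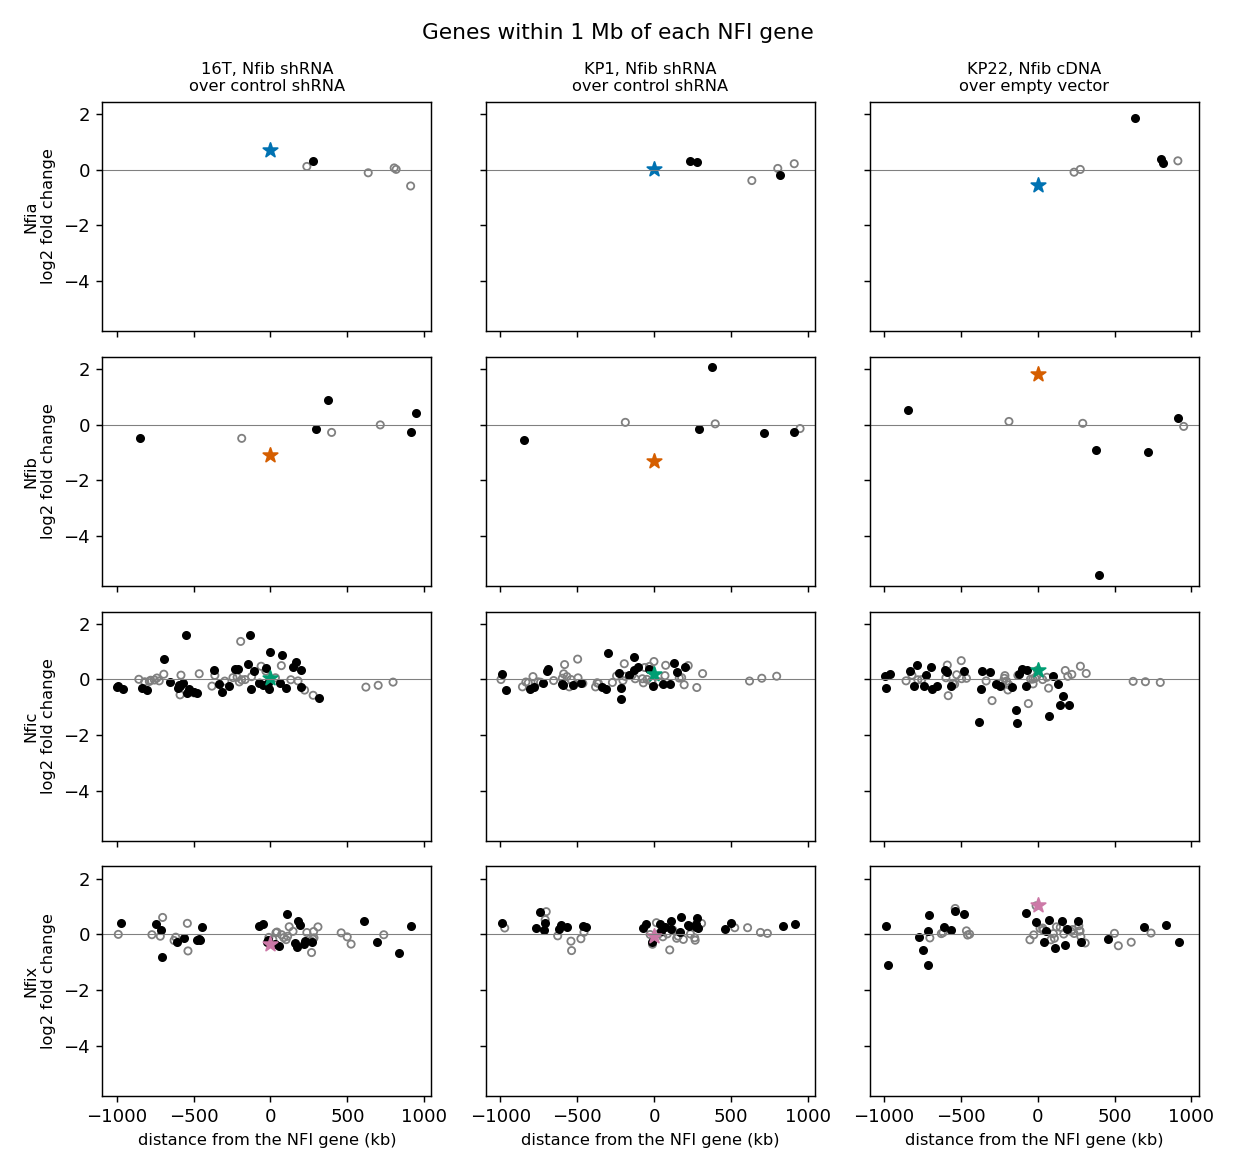
Log2 fold change (vertical axis) of features within 1 Mb of each NFI gene against their distance in kb (horizontal axis, positive towards higher coordinates), for 16T, KP1 and KP22 from left to right; stars mark the NFI gene, filled points an adjusted p below 0.05. In the Nfix row the KP1 panel holds 29 rises and 1 fall, and in the Nfib row Frem1 lies at -5.42 in KP22.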

How the data were processed

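RNA was sequenced in 12 samples of 6 groups; per the labels' protocols, RNA came from a Qiagen kit and libraries from an Illumina TruSeq kit. The submitters' processing notes name DESeq, DESeq2, TopHat and bedtools, and the mm10 build; their versions, settings and the use of strand were not given in these sources. Per the file headers, the authors deposited a signal, the normalized count averaged over libraries, log2 fold changes with their SEs, the Wald statistic as a score, and p-values with adjusted p-values, also against a change of 0.5. The deposited SE is at most 0.521 in 16T and has a median of 0.189 there at means under 1, so the log2 fold changes may be shrunken towards 0 for weak features. The table's name points to cqn (conditional quantile) normalization, which no label describes. The exon list names merged intervals by joining gene names.

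The authors' Wald test was used as deposited. From their effects and SEs, intervals of 95% and 2 contrasts (16T minus KP1, and KP22 plus the knockdown mean) were computed with Python 3.11.15, pandas 2.3.3 and scipy 1.17.1 for 15008 features with a mean of at least 10, taking errors as independent. The contrast code was run on simulated data with normal errors at the deposited SEs. Such data check the code and cannot check the normal reference or the SEs. Named genes are the members, their joined features and the 3 nearest patterns per member. They also include up to 3 called genes with the largest changes per list and comparison. The nearest and up to 2 most changed neighbours per locus are named too. Foxa1, Trmt1, Dohh, Mpdz, Snapc3 and the markers Chgb, Kdr, Vwf and Pdgfra are exceptions, singled out after their values were seen. A pair of listed genes is counted in its lists and not reported here by name. The members and lists were chosen with earlier results of these data known. Total counts per library are unknown, so counting error cannot be given. The labels name no batch.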

Additional observations from a re-analysis of the deposited data

Results flagged for a closer look

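For 3 members the effects in 16T and KP1, the knockdown lines, differed by the test of the difference (16T minus KP1, normal reference, Benjamini-Hochberg adjustment over 15008 features). The difference was 0.704 for Nfia, which was called in 16T and not in KP1, 0.239 for Nfib, which was reduced less in 16T, and -0.304 for Nfix, also called in 16T and not in KP1. The depth of the Nfib knockdown moved with these results, being deeper in KP1, where Nfia and Nfix had no call; its part in them was not tested.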

How the results depend on the processing

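No paired analysis was possible because the table holds results of comparisons and no value per sample; for the same reason leaving out each replicate was not run, and 1 library could decide a value unseen. All members that were called kept their call and direction with an adjusted p below 0.01, a t distribution of 6 degrees of freedom, recentring on the median feature, adjustment over features with a mean of at least 100 or no filter on the mean. Under the authors' test against a change of 0.5, Nfib alone was called in 16T (1 member, against 3), KP1 (1, against 2) and the mean of both (1, against 4), and Nfib and Nfix in KP22 (2, against 4), and of the other listed genes 5 in 16T, 8 in KP1 and 4 in KP22, against 13, 14 and 18; in 16T 4 of the 5 are among the 13, and 1 has no adjusted p in the test against no change. With the t distribution 1 member, Nfib, differed between 16T and KP1, against 3. Over all features that distribution called 3091 in KP1 (5402 with the authors' p), 4325 in KP22 (6730), 1870 between 16T and KP1 (4417) and 3356 as departing from a mirror image (5515), and the test against 0.5 called 813 in 16T (6574), 709 in KP1, 783 in their mean (7019) and 1264 in KP22, counted over every feature with an adjusted p of that test. Averaging Nfib with Nfib;Nfib, or Nfix with Lyl1;Nfix (this second choice made after seeing the data), changed no call.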

Other observations

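Chromosome 8, which holds Nfix, had more rises than other chromosomes in KP1. Of 779 tested features on chromosome 8, 26.8% rose and 12.5% fell in KP1, the highest share of rises among 20 chromosomes; the others ranged from 14.8% to 20.9%. Chromosome 8 had a median log2 fold change of 0.05 in KP1, and the neighbours of Nfix 0.22. In 16T 19.1% of features on chromosome 8 rose and 27.2% fell, and in KP22 22.4% rose and 18% fell. On chromosome 4, which holds Nfib, Nfia and Mycl, 22.6% rose and 26.2% fell in 16T, 16.0% rose and 20.6% fell in KP1, and 20.1% rose and 20.3% fell in KP22. The shares per chromosome were looked at after the values around Nfix were seen and carry no test.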
